A study of Danio rerio with 70 samples.

Results

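The vitellogenin genes encode the large lipoproteins from which fish egg yolk is made. The family was chosen with earlier results of these data known. Its members were taken by name, as every gene whose symbol starts with vtg followed by a digit. That rule was met by 8 of the 35117 genes counted (27000 genes had a symbol). They are vtg1 (ENSDARG00000092233), vtg2 (ENSDARG00000055809), vtg3 (ENSDARG00000016448), vtg4 (ENSDARG00000078429), vtg5 (ENSDARG00000092126), vtg6 (ENSDARG00000016825), vtg7 (ENSDARG00000092419) and vtg8 (ENSDARG00000092028). They were read in 70 polyadenylated RNA libraries of zebrafish T-cell acute lymphoblastic leukemia (T-ALL), of preleukemic cells and of healthy thymus, in 13 groups from 2 laboratories.

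In the Speleman laboratory, all fish carried Tg(rag2:GFP), a green reporter under the promoter of the lymphocyte gene rag2. Its groups were 6 dissected healthy thymi, whose titles begin with AB, 2 T-ALL of Tg(rag2:hTLX1; rag2:GFP) fish, which express the human oncogene TLX1 from that promoter, and 4 T-ALL of such fish that were also phf6+/-. A further 6 transplants of TLX1 T-ALL and 6 of phf6+/- TLX1 T-ALL came from Rag2-/- recipients of 5000000 T-ALL cells each, 2 of the former (2-2-1 and 2-2-3) by way of transplant 2-2. The labels do not say whether the thymus titled 2-3-5-6 was pooled from several fish. They also do not say that Speleman T-ALL cells were sorted, so cells of the fish itself can remain. In the Frazer laboratory, all fish carried Tg(lck:GFP), a reporter under the promoter of the T-cell kinase lck, and cells were sorted. Its groups were 5 healthy sorted thymocyte libraries, preleukemic thymocytes of hulk (3 libraries), otg (4) and shrek (2) mutants and of Tg(rag2:hMYC) fish (3), and T-ALL of hulk (9), otg (10) and shrek (10) mutants. T-ALL was collected when GFP-positive cells had taken over 90% of the fish. Sex and age were not in the labels used here.

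In egg-laying vertebrates, estrogen from the ovary acts through estrogen receptor 1 in hepatocytes of females and switches on vitellogenin transcription. The protein is secreted into the blood, taken up by growing oocytes through receptors of the low-density lipoprotein receptor family and cut into yolk proteins by cathepsins. In zebrafish, vtg1, vtg4, vtg5, vtg6 and vtg7 are type I genes, vtg2 and vtg8 are type II genes, and vtg3 is a type III gene whose product lacks the phosphate-rich phosvitin domain. In the RefSeq assembly GRCz12tu, which is not the build of these counts, vtg5, vtg4, vtg6, vtg7, vtg2 and vtg8 follow one another on one chromosome among further genes and pseudogenes, and vtg3 lies on another. Levels are given in CPM, the reads of a gene scaled to a fixed library total, with totals adjusted by TMM factors. Because no transcript lengths of the build were used, the level of one gene is compared between libraries and never with the level of another gene.

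Each Speleman library held 23730828 to 41393446 reads counted to genes, and each Frazer library 8676867 to 56471528. A count of 3 reads, used as the floor, was worth 0.0596 to 0.222 CPM in the former and 0.0592 to 0.464 CPM in the latter. The Frazer tables hold reads that matched several places in a row of their own, 5.62% to 33.0% of all reads, so reads shared by near-identical vitellogenin copies may be missing from the gene rows, and values of single type I genes are uncertain to that extent. The T-cell label was borne out by lck, which was at 208 to 1543 CPM in all 70 libraries, and by cd8a, which was at 11.5 to 1736 CPM.

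Vitellogenin reads were spread very unevenly. The 7 genes vtg1 to vtg7 held 76416 reads over the 70 libraries, and 1 library, phf6+/- TLX1 T-ALL 4, held 54.5% of them. Summed over the 7 genes, 43 libraries were under 1 CPM, 10 were between 1 and 10 CPM, 11 were between 10 and 100 CPM and 6 were over 100 CPM. No read of any of the 7 genes was counted in 13 libraries. Of these, 4 were otg T-ALL, 3 TLX1 transplants, 2 each phf6+/- TLX1 and shrek T-ALL, and 1 each hulk T-ALL and hMYC preleukemic cells, and none was a healthy library.

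**Figure D1:**
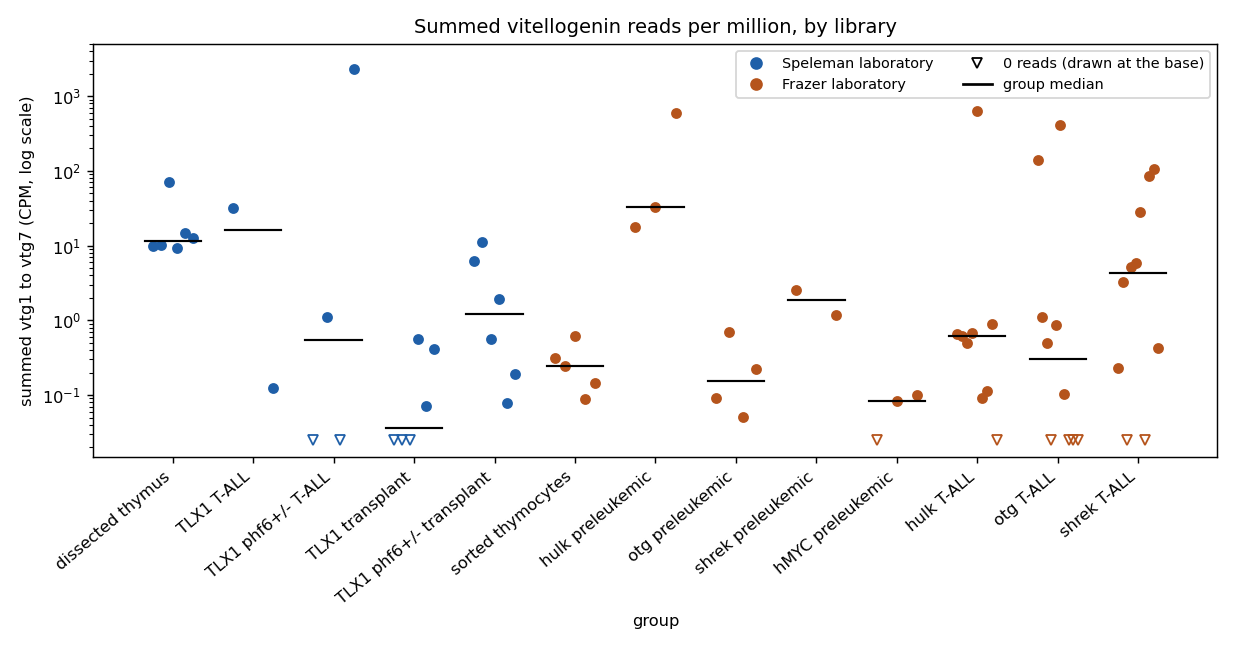
Summed CPM of vtg1 to vtg7 in each of 70 libraries (log axis), by group. Points are libraries, open triangles at the base are libraries with 0 reads, and bars are group medians. The 3 hulk preleukemic libraries lie above all 5 sorted thymocyte libraries, while each kind of T-ALL spans from at or near 0 to over 30 CPM.

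The 6 libraries over 100 CPM came from 5 groups. The highest was phf6+/- TLX1 T-ALL 4 at 2327 CPM, or 41626 reads and 0.133% of its gene reads (95% Wilson interval 0.132% to 0.134%, counting error only). It was followed by hulk T-ALL 5 at 641 CPM, hulk preleukemic 3 at 596 CPM, otg T-ALL 5 at 418 CPM, otg T-ALL 10 at 139 CPM and shrek T-ALL 9 at 106 CPM. In phf6+/- TLX1 T-ALL 4, vtg1 alone was at 1010 CPM. Below these, shrek T-ALL 8 was at 85.6 CPM and the dissected thymus labelled 2-3-5-6 at 71.5 CPM, so the upper end of the order mixed tumours, preleukemic cells and healthy tissue.

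The members moved together, except vtg8. With each library taken as log2(CPM + 0.5) less its group mean, each of vtg1 to vtg7 correlated with the sum of the other members at Pearson r 0.897 to 0.974 over the 24 Speleman libraries and 0.807 to 0.982 over the 46 Frazer libraries. The points share library, depth and the few high libraries, so these are descriptions. For vtg8, r was 0.36 and -0.03. In phf6+/- TLX1 T-ALL 4 it was at 0.168 CPM, and its highest value was 1.77 CPM in hulk preleukemic 1. It held 301 reads over all libraries and had at least 1 read in 55 of them, more than any other member, so it was widespread and low rather than concentrated.

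**Figure D2:**
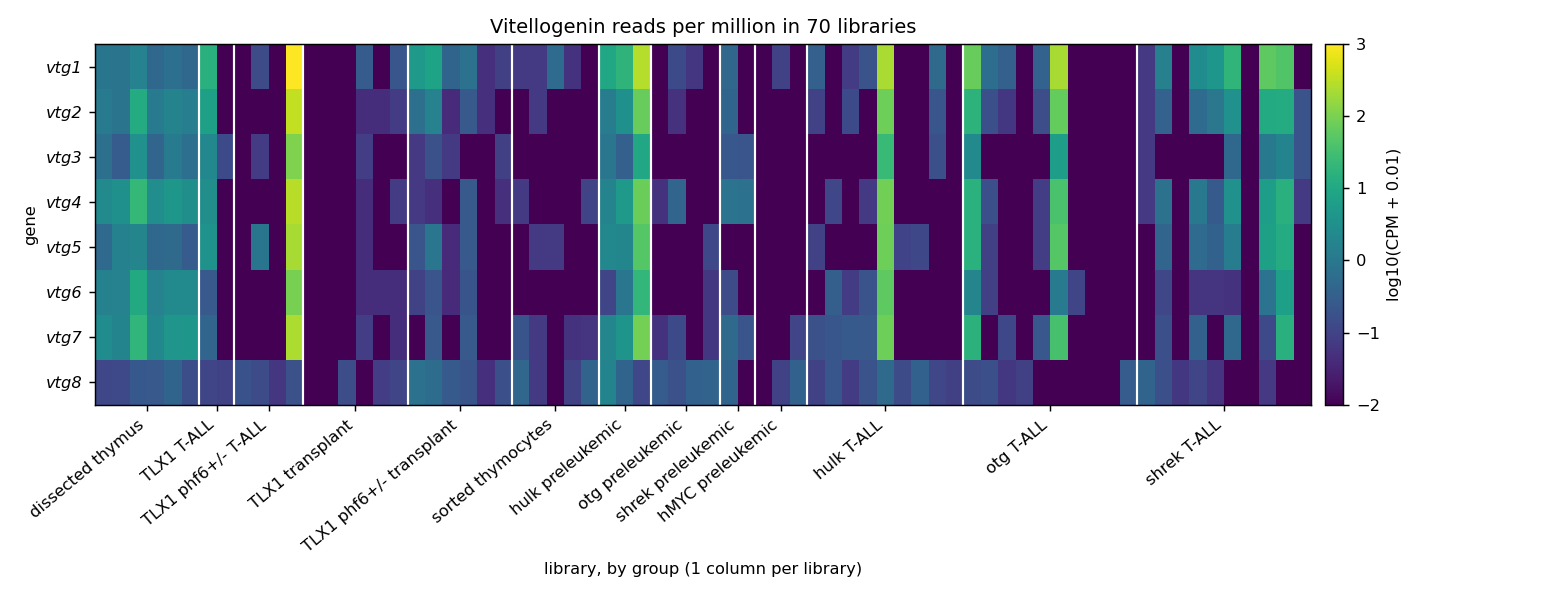
Level of each of the 8 vitellogenin genes (rows) in 70 libraries (columns, by group), as log10(CPM + 0.01). In phf6+/- TLX1 T-ALL 4, hulk T-ALL 5, hulk preleukemic 3 and otg T-ALL 5 the rows vtg1 to vtg7 are bright together, whereas vtg8 stays within 0 to 1.77 CPM throughout.

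The comparison of preleukemic hulk cells with healthy sorted thymocytes asks what differs before overt leukemia, and in it all 7 of the tested members were higher. vtg1 was at 9.58, 18.2 and 283 CPM in the 3 hulk preleukemic libraries and at 0.062, 0.061, 0.562, 0.0441 and 0 CPM in sorted thymocytes 1 to 5. The groups did not overlap, and hulk preleukemic 3 was the highest by far. Pooled over libraries, vtg1 was 574-fold higher (95% counting interval 328 to 1112), and its fitted log2 fold change was 9.57 ± 1.30 (SE; adjusted p = 0.000818, edgeR quasi-likelihood test). The pooled fold depended on single libraries, an alternative chosen after seeing the data. It was 98.97 (56.1 to 193) without hulk preleukemic 3, which held 2702 of the 3116 vtg1 reads, 1028 without hulk preleukemic 1, and 1898 (649 to 9207) without sorted thymocytes 3, which held 9 of the 12 reads of the controls. The fitted log2 fold change was 6.65 to 11.2 when any one library was left out, and vtg1 passed the test each time.

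The second type I gene with reads enough for a fitted fold was vtg7, at 1.97, 3.82 and 89.7 CPM against 0.186, 0.061, 0, 0.0441 and 0.0477 CPM. Again every hulk preleukemic library was above every control. Its pooled fold was 348 (159 to 949) and its log2 fold change 8.83 ± 1.2 (adjusted p = 0.00058, edgeR). The pooled fold was 41.1 without hulk preleukemic 3, 635 without hulk preleukemic 1 and 573 without sorted thymocytes 1. For the other members the controls held 0 to 3 reads in all. vtg3, the type III gene, was at 0.908, 0.325 and 9.84 CPM and had no read in any control, which makes it at least 85.5-fold higher against a floor of 3 reads over the group (adjusted p = 0.0218, edgeR). vtg6 was at 0.101, 0.894 and 20.2 CPM against 0 reads, at least 152-fold higher (adjusted p = 0.0212, edgeR).

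vtg2, the type II gene of the set, was at 1.31, 3.25 and 68.9 CPM against 1 read over the 5 controls, a ratio of 1601 with a counting interval of 286 to 63315. vtg4 was at 1.71, 4.8 and 76.7 CPM against 3 reads, a ratio of 609 (208 to 2958). vtg5 was at 2.17, 1.95 and 47.7 CPM against 2 reads, a ratio of 578 (159 to 4787). All 3 passed the test (adjusted p = 0.00228, 0.00203 and 0.00155 for vtg2, vtg4 and vtg5, edgeR), and all were above every control in 3 of 3 hulk preleukemic libraries. The share of all genes without overlap between these groups is not given here, so how unusual this separation is cannot be told. Without hulk preleukemic 3 these ratios were 189, 88.9 and 96.1, and vtg3 and vtg6 were at least 21.0-fold and 12.4-fold higher. vtg8 did not pass the filter on low counts.

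limma-voom also called all 7, and DESeq2 called 5, with no adjusted p for 1. The 7 calls of edgeR stand beside 3.77% of the 19531 genes tested that passed edgeR in either direction in this comparison, and 2.24% that passed as higher. Shares of all genes called by the other 2 tools, or with a library left out, are not given here. The controls held 0 to 12 reads of each member, which left little room for a lower call. With so few control reads, all 7 members passed the filter on low counts only through preleukemic libraries, vtg3 and vtg6 with no control read at all. The filter thus kept members that were high in preleukemic cells, so 7 of 7 beside the share of all genes is a description. The members also move together, so the 7 calls are not separate results. The median fitted log2 fold change of the 7 genes was 9.53, against -0.07 over all genes tested. The median of their pooled folds, with genes at 0 control reads set to their bound, was 574, or 9.17 on the log2 scale. Without hulk preleukemic 3, 5 members still passed, and 5 to 7 passed when any one library was left out. In bulk RNA, a difference in the number of cells of a type and one in RNA per cell cannot be told apart. The sorted thymocytes stand in a count table of their own, so table and group cannot be told apart either. The labels do not say that libraries of a group came from separate fish, so p-values measure the spread between these libraries.

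**Figure D3:**
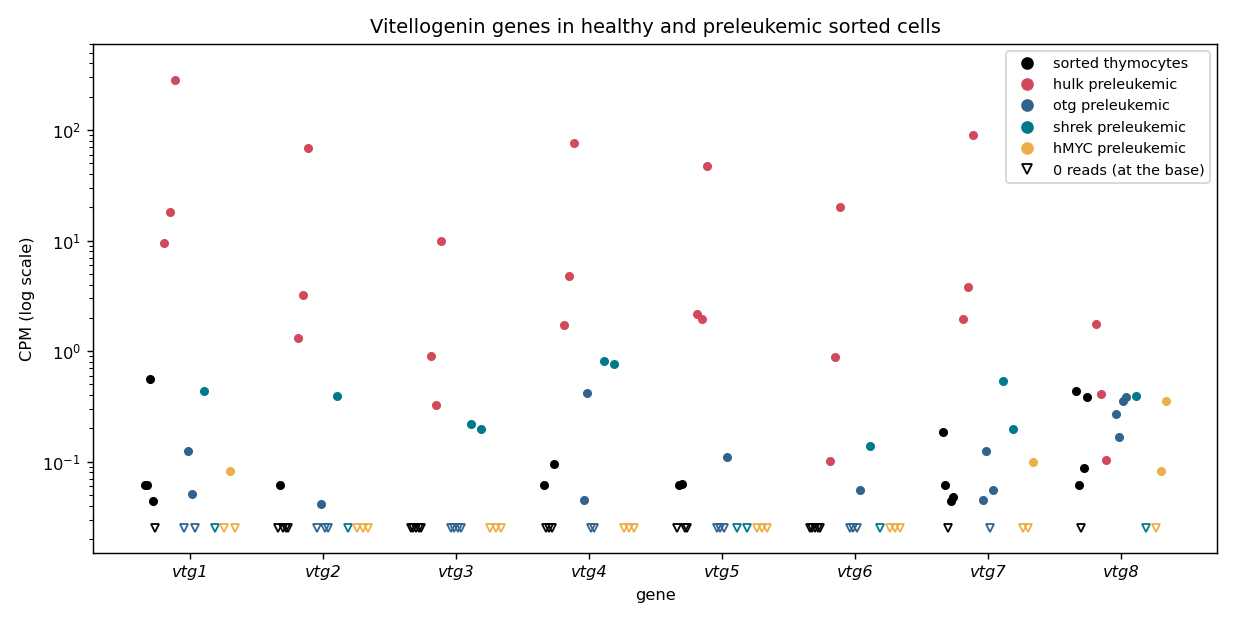
CPM (log axis) of each vitellogenin gene in sorted thymocytes and the 4 kinds of preleukemic cells. Points are libraries and open triangles at the base are 0 reads. For vtg1 to vtg7, the 3 hulk libraries lie above all 5 sorted thymocyte libraries, and the otg, shrek and hMYC libraries stay under 1 CPM.

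The other preleukemic cells held few vitellogenin reads. Summed over vtg1 to vtg7, the 4 otg libraries were at 0.0906, 0.708, 0.0507 and 0.22 CPM and the 3 hMYC libraries at 0, 0.0827 and 0.1 CPM, within or below the 0.0882 to 0.625 CPM of sorted thymocytes save for otg preleukemic 2. No member was called in either comparison with edgeR, none had an unadjusted p under 0.05, and none was called by limma-voom or DESeq2 (which gave no adjusted p for 1 member). Of all genes, 5.33% passed for otg and 19.9% for hMYC. With counts of 0 to 11 reads per gene over a whole group, only large differences were detectable at this depth.

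The shrek preleukemic pair stood slightly above the controls. Its summed levels were 2.53 and 1.16 CPM. vtg4 was at 0.811 and 0.77 CPM (80 reads) against 3 reads in the controls, a ratio of 24.3 (counting interval 8.02 to 120; adjusted p = 0.0288, edgeR). vtg3 was at 0.218 and 0.197 CPM against 0 reads, at least 6.38-fold higher (adjusted p = 0.0467, edgeR). These 2 of 7 members passed where 38% of all genes did, 17.3% as higher, so the share is near the background. Without shrek preleukemic 1 or 2, or sorted thymocytes 2, 3 or 4, no member was called, and 1 was called without sorted thymocytes 1 or 5. vtg1, in contrast, was at 0.435 and 0 CPM, within the controls' range.

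Among T-ALL of the 3 mutant lines, vitellogenin was carried by a few tumours. In the 9 hulk T-ALL, summed vtg1 to vtg7 had a lowest value of 0, a median of 0.623 and a highest of 641 CPM, and the second highest was 0.888 CPM. In hulk T-ALL 5, vtg1 was at 231, vtg2 at 79.1, vtg3 at 24.8, vtg4 at 87.6, vtg5 at 81, vtg6 at 57.8 and vtg7 at 79.8 CPM. As a group the remaining 8 overlapped the sorted thymocytes, whose highest value was 0.625 CPM. Hulk T-ALL 8, 4 and 1, at 0.888, 0.672 and 0.655 CPM, were above every one of these controls. Against those controls, vtg2 (adjusted p = 0.0474) and vtg6 (adjusted p = 0.031) were called higher by edgeR, 2 of 7 members where 13.7% of the 21831 genes tested passed, 8.47% as higher. Without hulk T-ALL 5, the tumour that held nearly all of the reads, none was called. Nor was any called without sorted thymocytes 1, 2, 4 or 5, while 4 were called without hulk T-ALL 3 or 9, and 1 without hulk T-ALL 1 or 8 or sorted thymocytes 3.

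In the 10 otg T-ALL the lowest summed level was 0, the median 0.301 and the highest 418 CPM, in otg T-ALL 5, with otg T-ALL 10 second at 139 CPM and the third at 1.12 CPM. vtg1 was at 221 CPM in the first and 70.8 CPM in the second, vtg2 at 67.4 and 16.9 CPM, and vtg5 at 48.5 and 15.6 CPM. These 3 genes were called higher than in sorted thymocytes (adjusted p = 0.0372, 0.0273 and 0.0426, edgeR), 3 of 7 where 28% of all genes passed, 12.8% as higher. The fitted log2 fold change of vtg1 was 7.84 ± 2.87 and its pooled fold 197 (113 to 382), or 72.3 without otg T-ALL 5 and 651 without sorted thymocytes 3, but 5 of 10 tumours had no vtg1 read. Without otg T-ALL 5, or without any one of the sorted thymocyte libraries, no member was called. For the sum, otg T-ALL 1 at 1.12 CPM and otg T-ALL 4 at 0.873 CPM also lay above every sorted thymocyte library.

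The 10 shrek T-ALL showed a graded range rather than 1 or 2 high tumours. Their lowest summed level was 0, the median 4.27 and the highest 106 CPM. vtg1 was at 44.3 CPM in shrek T-ALL 9, 59.18 in 8, 18.7 in 6, 4.28 in 5, 2.67 in 4 and 1.49 in 2, and at 0 to 0.0569 CPM in the remaining 4. So 6 of 10 tumours were above every sorted thymocyte library for vtg1 and for the sum. No member passed edgeR's test (adjusted p 0.0603 to 0.161; 5 of 7 had an unadjusted p under 0.05), where 30.2% of all genes did. limma-voom called 3 members and DESeq2 2, with no adjusted p for 5. Shares of all genes called by these 2 tools are not given here. Pooled over tumours, vtg1 was 98.7-fold higher (56.4 to 191), or 61.7-fold without shrek T-ALL 8 and 326-fold without sorted thymocytes 3.

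T-ALL was also compared with preleukemic cells of the same line. For hulk, 8 of 9 tumours had less vtg1 than the lowest preleukemic library, and hulk T-ALL 5 lay between preleukemic 2 and 3. The fitted log2 difference was -1.92 ± 2.01 and no member was called by edgeR (none with an unadjusted p under 0.05) or DESeq2 (no adjusted p for 5), where 0.206% of all genes were called. limma-voom, which gives libraries that stand apart less weight, called 5 members lower, and edgeR called 2 lower without hulk T-ALL 5. The share of all genes called in either of these fits is not given here. For otg (12.1% of all genes called) edgeR called no member, 6 had an unadjusted p under 0.05, DESeq2 called 1 and limma-voom none. For shrek (15.4% of all genes called) edgeR and DESeq2 called none, limma-voom called 1, and none had an unadjusted p under 0.05. The shares for otg and shrek are those of edgeR, and those of the other tools are not given here. The difference between hulk and otg in this change was not called either for any member (edgeR adjusted p 0.34 to 0.685, 6 with an unadjusted p under 0.05, 0% of all genes called), nor was that between hulk and shrek (6.84%) or otg and shrek (16.4%), with no unadjusted p under 0.05.

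In the TLX1 model the healthy tissue itself held vitellogenin reads. The 6 dissected thymi had a lowest summed level of 9.22, a median of 11.5 and a highest of 71.5 CPM, and all 7 members had reads in each. The 2 TLX1 T-ALL were at 31.8 and 0.123 CPM, and the 4 phf6+/- TLX1 T-ALL at 0, 1.09, 0 and 2327 CPM. Thus 4 of 6 tumours lay below every thymus for the sum and 1 lay above every thymus.

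For vtg1, the thymi had a lowest value of 0.471, a median of 0.744 and a highest of 1.65 CPM, the TLX1 T-ALL 15.2 and 0 CPM, and the phf6+/- TLX1 T-ALL 0, 0.137, 0 and 1010 CPM. In tests against thymi, TLX1 T-ALL stands for all 6 tumours of both genotypes. The 2 genotypes were averaged at equal weight, so each tumour without phf6+/- counted more than each phf6+/- tumour. vtg1 was the only member called, higher in tumours with a log2 fold change of 5.80 ± 2.04 (adjusted p = 0.0272, edgeR), although only 2 of 6 tumours were higher. That is 1 of 7 listed members where 56% of the 22224 genes tested passed, 20.2% as higher and 35.8% as lower. Those shares are of the fit with all libraries, and shares for the omissions that follow are not given here. Without phf6+/- TLX1 T-ALL 4 the sign turned to -0.59 and vtg3, vtg4, vtg6 and vtg7 were called lower, and without TLX1 T-ALL 1 the value was 0.24 (adjusted p = 0.965) with no call. Nor was any member called without thymus 7, 8, 9, 10 or 11, while vtg1 and vtg5 were called without phf6+/- TLX1 T-ALL 1, 2 or 3.

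The type I genes vtg4 and vtg6 showed the other side of the same split. vtg4 had a thymus median of 3.18 CPM (2.46 to 21.5), was at 2.95 and 0 CPM in TLX1 T-ALL and at 0, 0, 0 and 296 CPM in phf6+/- TLX1 T-ALL. vtg6 had a thymus median of 2.04 CPM (1.58 to 11.1), was at 0.24 and 0 CPM in TLX1 T-ALL and at 0, 0, 0 and 96.5 CPM in phf6+/- TLX1 T-ALL. vtg4 was below every thymus in 4 of 6 tumours and vtg6 in 5 of 6, and neither passed the test with all tumours in it (adjusted p = 0.688 for vtg4 and 0.679 for vtg6, edgeR). vtg8 was at 0.104 to 0.404 CPM in thymi and 0.0506 to 0.17 CPM in the 6 tumours (log2 fold change -0.82 ± 0.50, adjusted p = 0.182). phf6+/- against other TLX1 T-ALL, 4 against 2, gave no call (edgeR adjusted p 0.351 to 0.532 for the listed members, 2 with an unadjusted p under 0.05; 0.0405% of all genes called). limma-voom called none and DESeq2 gave no adjusted p for any member.

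Levels in transplants differed from those of the tumours they came from for TLX1 T-ALL 1 and phf6+/- TLX1 T-ALL 1. The other 2 tumours and their transplants held few reads, some at or under the floor of 3. TLX1 T-ALL 1 was at 31.8 CPM summed over vtg1 to vtg7, and its transplants 1-1 and 1-2 had 0 reads. TLX1 T-ALL 2 was at 0.123 CPM (3 reads), and its transplants 2-1 and 2-2 were at 0 and 0.413 CPM (0 and 12 reads). Transplants 2-2-1 and 2-2-3, made from transplant 2-2, were at 0.564 and 0.0719 CPM (16 and 2 reads). phf6+/- TLX1 T-ALL 1 had 0 reads, whereas its 3 transplants were at 6.26, 11 and 0.554 CPM, mostly vtg1 at 5.16, 7.83 and 0.4 CPM. The transplants of phf6+/- TLX1 T-ALL 2, at 1.09 CPM (16 reads), were at 1.90, 0.0774 and 0.192 CPM (40, 2 and 5 reads). No vitellogenin gene passed the filter on low counts in the test of transplants against tumours of origin, so these are descriptions (0.123% of the 15504 genes tested were called there).

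The members' shares of vitellogenin reads divided the libraries in another way. Shares were taken in the 24 libraries with at least 50 reads of vtg1 to vtg7. In the 6 dissected thymi vtg1 held 2.31% to 8.75% of them, vtg4 24% to 32.2%, vtg6 15.5% to 18.7% and vtg7 17.5% to 35.4%. In the other 18 libraries vtg1 held a median of 50.9%, vtg4 12.4%, vtg6 1.35% and vtg7 9.47%. The range of vtg6 in those 18, 0% to 9.01%, did not overlap that of the thymi.

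For vtg1 the exception was the shrek preleukemic pair, at 17.2% and 0%, with vtg4 at 32% and 66.1%. Every T-ALL, transplant and hulk preleukemic library of the 24 had a vtg1 share of 36.1% to 82.4%. The highest was transplant 1-1 of phf6+/- TLX1 T-ALL 1 and the lowest hulk T-ALL 5. That transplant and transplant 1-2, where vtg1 held 71.1%, had the lowest vtg4 shares of the 24 libraries, 0.926% and 0.366%. vtg7 separated the shrek T-ALL among themselves: its share was 13.9% in shrek T-ALL 9 and 0.135% in shrek T-ALL 8, although their summed levels were 106 and 85.6 CPM. The thymi were dissected and not sorted, 14 of the other 18 libraries were sorted, and reads matching several copies were treated apart in the Frazer tables. The part of either in the shares was not tested.

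**Figure D4:**
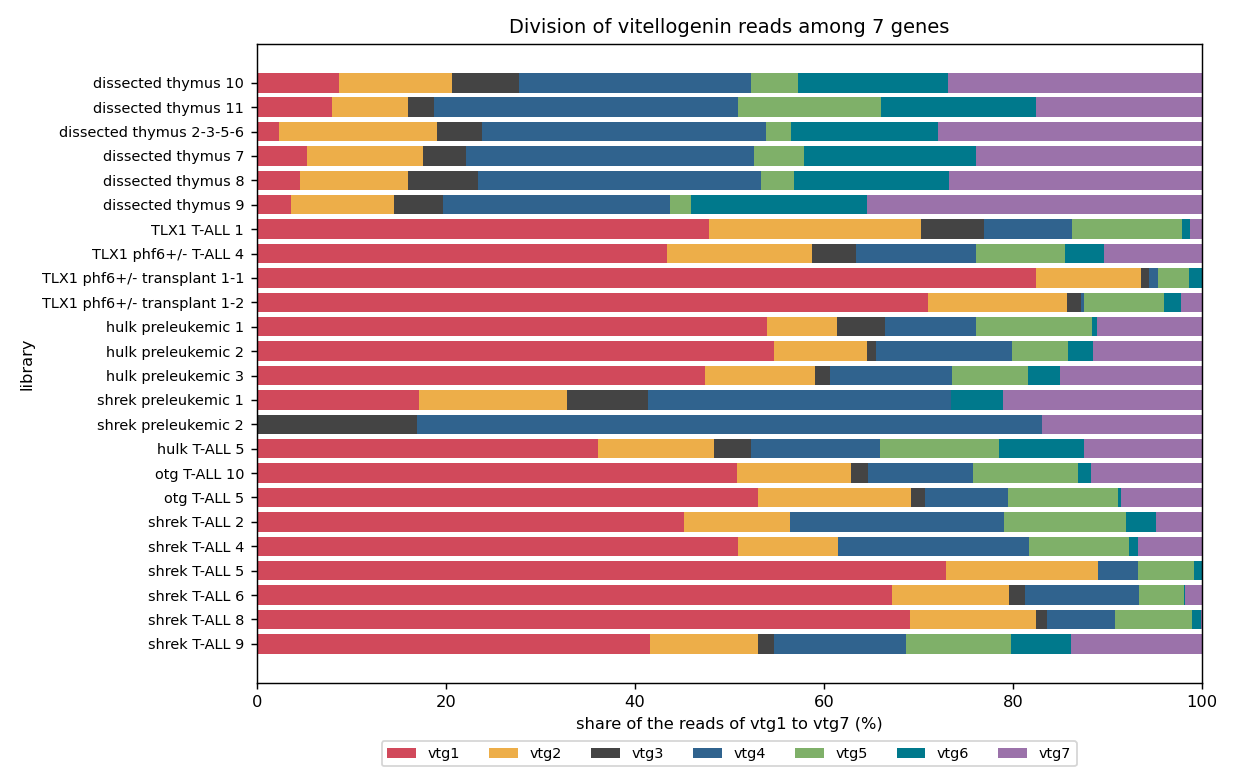
Share (%) of each of vtg1 to vtg7 in the reads of these 7 genes, for the 24 libraries with at least 50 such reads. The vtg1 block spans 2.31% to 8.75% in the 6 dissected thymi and 36.1% to 82.4% in the T-ALL, transplant and hulk preleukemic libraries, and the shrek preleukemic pair differs from both.

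Because vitellogenin is known as a product of the liver, 40 hepatocyte genes were read beside it. Their order of the libraries differed in part from that of vitellogenin. phf6+/- TLX1 T-ALL 2 had the highest summed hepatocyte level, 13196 CPM, with the hepatocyte fatty acid binding protein gene fabp10a at 382 CPM and vitellogenin at 1.09 CPM. phf6+/- TLX1 T-ALL 4, highest for vitellogenin at 2327 CPM, had the highest hepatocyte level after that tumour. It was at 1479 CPM of hepatocyte genes, with fabp10a at 70.4 CPM. phf6+/- TLX1 T-ALL 3, with 885 CPM of hepatocyte genes and fabp10a at 46.2 CPM, had no vitellogenin read.

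At the other end, otg T-ALL 10 was at 28.2 CPM of hepatocyte genes and 0.136 CPM of fabp10a with vitellogenin at 139 CPM. Shrek T-ALL 8 and 9 were at 36.4 and 32 CPM of hepatocyte genes with fabp10a at 0.174 and 0.84 CPM. The libraries named here and in the paragraph before were picked by their levels. Among them, high vitellogenin occurred both with little and with high fabp10a, and high fabp10a also occurred with no vitellogenin read. Sex was not in the labels used here, so libraries of males and females could not be told apart. Within the thymi, thymus 10 had the highest hepatocyte level, 1057 CPM against 359 to 432 CPM in the others, while thymus 2-3-5-6 had the highest vitellogenin. Whether the reads come from liver RNA was not tested.

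**Figure D5:**
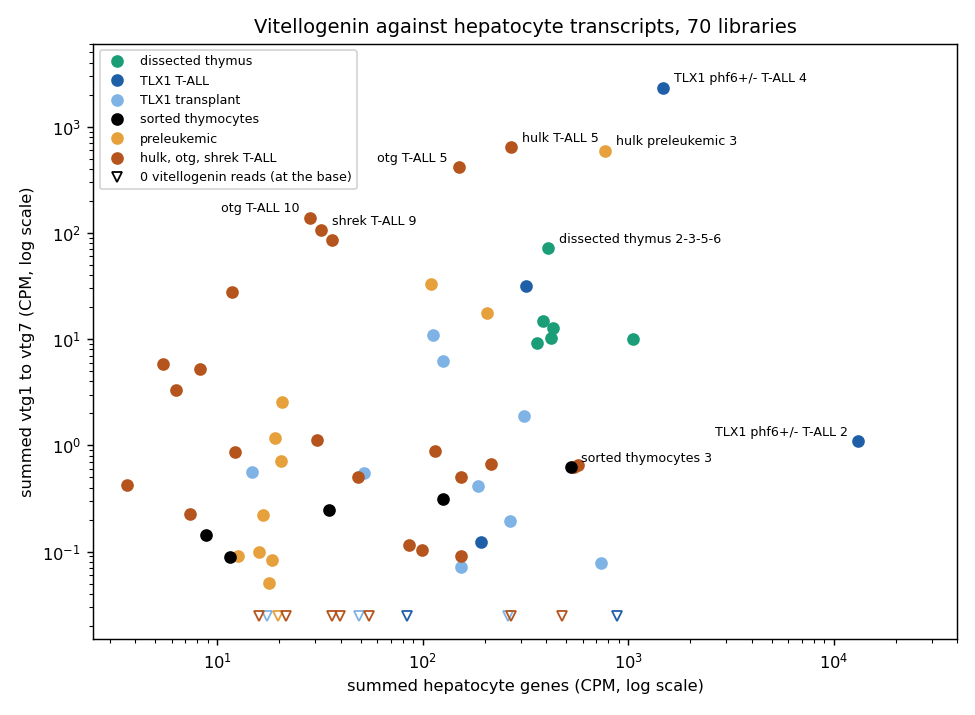
Summed vtg1 to vtg7 against summed level of 40 hepatocyte genes, both in CPM on log axes, in 70 libraries coloured by kind. Open triangles at the base are libraries with 0 vitellogenin reads. phf6+/- TLX1 T-ALL 2 is far right at 13196 CPM with 1.09 CPM of vitellogenin, and otg T-ALL 10 is high at 139 CPM with 28.2 CPM of hepatocyte genes.

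In the preleukemic hulk comparison the hepatocyte genes moved with vitellogenin in part. Their summed level was 206, 110 and 773 CPM in hulk preleukemic 1 to 3 and 126, 34.9, 524, 11.6 and 8.87 CPM in sorted thymocytes 1 to 5. The groups overlapped through sorted thymocytes 1 and 3. In sorted thymocytes 3, fabp10a was at 14.2 CPM, as in hulk preleukemic 3 at 17.9 CPM, while vitellogenin was at 0.625 and 596 CPM. With all libraries, 0 of 37 hepatocyte genes tested were called (edgeR; DESeq2 called 2, with no adjusted p for 5, and limma-voom 15, all higher), among them fabp10a (log2 fold change 1.51, adjusted p = 0.521), apoa2 and apoa1b of plasma lipoproteins (1.26 and 1.42), the retinol carrier RBP4 (0.75) and the iron carrier tfa (1.1). Sorted thymocytes 3 had the highest hepatocyte level of the controls, and its omission is singled out after seeing these values. It also held 2370 CPM of exocrine pancreas genes, against 4.67 to 59.4 CPM in the other controls. Without it, 18 of 33 were called higher where 5.02% of all genes were, fabp10a at 4.64 (adjusted p = 0.0182, edgeR), and all 7 vitellogenin genes tested were called higher. Leaving out the highest control raises the hepatocyte folds by itself, so these hepatocyte counts are descriptions. Shares of all genes called by DESeq2 and limma-voom are not given here. The part of liver RNA in the vitellogenin difference was not tested.

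In TLX1 T-ALL against thymi, 20 of 40 hepatocyte genes were called higher and 1 lower (background 20.2% and 35.8%), with a median log2 fold change of 2.78 against -0.19 over all genes. By library-size scaling these counts were 11 and 3, and leaving out 1 library gave 15 to 28 higher, with the shares of all genes in those fits not given here. tfa rose (2.48, adjusted p = 0.0483) and RBP4 fell (-3.20, adjusted p = 0.00151), and the values of apoa2 and apoa1b were 2.36 and 3.35 (adjusted p = 0.114 and 0.0538, edgeR). The call of tfa was lost under library-size scaling, limma-voom and 9 of 12 omissions of a library. For fabp10a the value was 2.14 (adjusted p = 0.137), and without thymus 10 it was 4.8 (adjusted p = 0.00085). That omission is singled out after seeing that thymus 10 had the highest hepatocyte level of the thymi.

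Egg and ovary genes were read as markers of the tissue that takes vitellogenin up. The 24 genes summed to 211 CPM in phf6+/- TLX1 T-ALL 4 and 86.3 CPM in TLX1 T-ALL 1, the 2 TLX1 tumours with most vitellogenin, and to 1.37 to 33.5 CPM in the other 4. They were also at 156 CPM in phf6+/- transplant 2-1 and 154 CPM in hulk T-ALL 3, with vitellogenin at 1.90 and 0.503 CPM. Hulk T-ALL 3 held 317 CPM of testis and germ cell genes as well. In hulk preleukemic cells the egg and ovary genes were at 3.98 to 8.06 CPM against 0.529 to 7.18 CPM in sorted thymocytes. Of the 24 genes, 8 had no read in each of the 2 groups.

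In TLX1 T-ALL against thymi 12 of 17 tested egg genes were called higher and none lower, where 20.2% of all genes were called higher and 35.8% lower. The egg-coat genes zp3b (log2 fold change 2.11, adjusted p = 0.00966, edgeR) and zp3a.1 (6.24, adjusted p = 0.00742) were among them. Without TLX1 T-ALL 1, 1 of 18 tested was called higher where 16.3% of all genes were, with zp3b at 0.98 and zp3a.1 at 2.73. Without phf6+/- TLX1 T-ALL 4, 6 of 16 were, where 19.3% of all genes were. limma-voom called 3 of 17 higher and 1 lower, where it called 19.5% of all genes higher. The part of ovary RNA in the vitellogenin difference was not tested.

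The gene of the receptor through which estrogen acts was lower in several of these comparisons. ESR1 was lower in TLX1 T-ALL than in thymi (log2 fold change -4.56 ± 0.64, adjusted p = 7.67e-05, edgeR), with thymi at 6.60 to 11 CPM and tumours at 0 to 0.894 CPM and no overlap. In phf6+/- TLX1 T-ALL 4 it was at 0.894 CPM, the highest of the 6 tumours. In otg and shrek T-ALL it was lower than in sorted thymocytes, by log2 fold changes of -4.59 ± 0.81 (adjusted p = 0.000125) and -7.46 ± 0.93 (adjusted p = 2.93e-07, edgeR). In hulk T-ALL the value was -2.17 ± 0.78 (adjusted p = 0.0556).

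In hulk preleukemic cells ESR1 was at 5.75, 2.68 and 1.15 CPM against 7.5 to 14 CPM in sorted thymocytes, again without overlap, while all 7 tested vitellogenin genes were higher. It fell by 1.72 ± 0.43 on the log2 scale (adjusted p = 0.0327, edgeR). That call was lost without hulk preleukemic 2 or 3 or sorted thymocytes 4 or 5 (adjusted p 0.0628 to 0.162), and under library-size scaling or limma-voom. Of the 11 genes on the estrogen signalling list, 4 were tested in this comparison and ESR1 was the only one called, where 3.77% of all genes were. In TLX1 T-ALL it was the only one called of 6 tested, a smaller share than the 56% of all genes.

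Of 7 genes for uptake and processing of vitellogenin, 2 were called higher and 2 lower in TLX1 T-ALL, a share near the background of 56% of all genes (20.2% higher and 35.8% lower). The lysosomal proteases CTSD, which cuts vitellogenin in fish oocytes, and ctsla rose, with log2 fold changes of 2.33 (adjusted p = 0.000369) and 1.65 (adjusted p = 0.00839, edgeR). The latter was lost without TLX1 T-ALL 2 and by library-size scaling. VLDLR, which is named for very low-density lipoprotein and whose fish homologs bind vitellogenin in oocytes, fell by 2.48 ± 0.42 (adjusted p = 0.000315, edgeR), with thymi at 4.09 to 5.03 CPM and tumours at 0.17 to 1.57 CPM. The other lower gene, ldlra of the low-density lipoprotein receptor family, is named after its values were seen (-5.50, adjusted p = 7.62e-06, edgeR). In hulk preleukemic cells 0 of 6 tested were called (edgeR), with VLDLR at 2.93, 0.894 and 0.523 CPM against 0.806 to 3.12 CPM.

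Markers of some other tissues were lower along with ESR1, VLDLR and ldlra in TLX1 T-ALL than in dissected thymus, and those of others were higher. Of 5 thymic epithelium genes, 4 were called lower and none higher, among them, named after their values were seen, the transcription factor foxn1 (log2 fold change -9.998, adjusted p = 2.48e-07) and the thymoproteasome subunit psmb11b (-10.1, adjusted p = 1.68e-07, edgeR). Their summed level was 452 to 533 CPM in thymi and 0.893 to 12.2 CPM in the 6 tumours. All 12 skin genes were called lower, with summed levels of 1839 to 2471 CPM in thymi and 32.9 to 320 CPM in tumours. Of all genes tested in this fit, 35.8% were called lower and 20.2% higher. All 11 skeletal muscle genes were called lower as well, at 2569 to 4354 CPM in thymi and 13.1 to 168 CPM in tumours. For the lists that follow, summed levels are given without counts of calls. Macrophage genes were lower, at 2587 to 3328 CPM in thymi and 167 to 1144 CPM in tumours. Exocrine pancreas genes went the other way, at 25.4 to 119 CPM in thymi and 258 to 1759 CPM in tumours. So did summed neutrophil genes, at 221 to 293 CPM in thymi and 333 to 1620 CPM in tumours. Of that list, MMP9 was called lower (-1.07, adjusted p = 0.0319, edgeR). Testis and germ cell genes were lower, at 11.2 to 15.8 CPM in thymi and 1.84 to 6.67 CPM in tumours. Ranges of erythroid, intestine and kidney genes overlapped. The part of any of these tissues in the lower ESR1, VLDLR and ldlra was not tested.

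Genes whose pattern over libraries was most like summed vtg1 to vtg7 were sought among 12808 genes with at least 1 CPM in at least 10 libraries of each laboratory. Likeness was the lower of Pearson r over the 24 Speleman and the 46 Frazer libraries, each as log2(CPM + 0.5) less its group mean. F13A1, the A chain of coagulation factor XIII, was first, with r 0.70 and 0.65. The next were doc2g at 0.46, ENSDARG00000098796, which has no symbol, at 0.41, gnaia at 0.36, rorab at 0.35, LZIC at 0.34, si:dkey-68o6.6 at 0.34, pck2 at 0.33, TTC7A at 0.33 and b2m at 0.33. The median over all genes was -0.11 and the 99th percentile 0.25. Of the 40 hepatocyte genes, 27 were among those compared, and their likeness ran from -0.26 to 0.24 with a median of -0.016, tfa at 0.18, apoa2 at 0.16 and fabp10a at 0.07. These are descriptions over libraries that share depth and composition.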

How the data were processed

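The values are counts of reads for each Ensembl gene, not normalized, which the authors deposited in 3 gene tables. Per the submitters' processing notes, STAR was a tool used and GRCz10 the build; versions, annotation and strand setting are not given in the sources used here. Libraries were made with a stranded mRNA kit, per the labels' protocols. Left unused were 9 columns whose names fit no sample in the labels. Summary rows of the Frazer tables, 17.9% to 52.6% of reads, were left out. The members and gene lists were chosen with earlier results of these data known.

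Counts were fitted in edgeR 4.0.16 (R 4.3.3) over all genes: TMM scaling (factors 0.38 to 1.69), filterByExpr (minimum count 10, total 15), robust quasi-likelihood tests, with Benjamini-Hochberg adjusted p under 0.05 as a call. The Speleman T-ALL and thymi, the transplants with their tumours of origin, the Frazer T-ALL with all Frazer controls, and the preleukemic with the healthy cells were fitted apart. In both Frazer fits the sorted thymocytes held too few vitellogenin reads to bring a member past the filter. Pooled folds against 1 to 3 reads carry a 95% counting interval, and those against 0 reads use a floor of 3. Intervals cover counting error only. Alternatives were other scalings, no filter, DESeq2 1.42.0, limma 3.58.1 voom with sample weights, omission of each library and a replicate block. Fits were tested on simulated data with changes set in well-counted genes of even spread. That does not cover genes with few control reads and single high libraries, as here. Named were all members and, of each list, the genes with the highest mean CPM, besides ESR1, fabp10a and VLDLR; the 10 most similar genes were named by likeness. Zebrafish symbols come from the gene name table supplied.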

Additional observations from a re-analysis of the deposited data

Results flagged for a closer look

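In groups of 4 to 10 libraries, 69 combinations of gene and group were searched for a library far from the others, and 40 were found. No comparison with the nominal chance rate of about 1 in 20 is drawn. Where the other libraries are at 0, 1 read is enough, as for vtg2 in sorted thymocytes 2. Members of a group move together, so these are not 40 separate events. All values are CPM.

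Thymus 2-3-5-6 stood above the other thymi for vtg1 (1.65), vtg2 (12), vtg3 (3.46), vtg4 (21.5), vtg6 (11.1) and vtg7 (19.99), and less clearly for vtg5 (1.86). Phf6+/- TLX1 T-ALL 4 stood apart for vtg1 (1010), vtg2 (357), vtg3 (107), vtg4 (296), vtg5 (219), vtg6 (96.5) and vtg7 (240). Hulk T-ALL 5 did so for vtg1 (231), vtg2 (79.1), vtg3 (24.8), vtg4 (87.6), vtg5 (81.0), vtg6 (57.8) and vtg7 (79.8). Otg T-ALL 5 did so for vtg1 (221), vtg2 (67.4), vtg3 (6.44), vtg4 (36.8), vtg5 (48.5) and vtg7 (35.9), with vtg6 higher in otg T-ALL 10. Shrek T-ALL 9 was apart for vtg4 (14.9), vtg6 (6.72) and vtg7 (14.8), and shrek T-ALL 1 for vtg8 (0.398).

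The remaining values rest on 1 to 23 reads. They were vtg1 in sorted thymocytes 3 (0.562), vtg2 in sorted thymocytes 2 (0.061), vtg2 (0.0416) and vtg4 (0.416) in otg preleukemic 2, vtg5 (0.11) and vtg6 (0.0549) in otg preleukemic 4, vtg3 (0.0705) and vtg5 (0.0352) in TLX1 transplant 2-2-1, vtg4 in phf6+/- transplant 2-1 (0.238) and vtg5 in phf6+/- transplant 1-2 (0.928).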

How the results depend on the processing

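Counts of members called depended on the fit wherever few libraries carried the reads. Counts are given as edgeR's first and then each alternative's, without the share of all genes called in each alternative. TLX1 T-ALL against thymi went from 1 to 2 by library size (1 higher, 1 lower) and to 0 with no filter, DESeq2 (no adjusted p for 7 of 8) or voom. Hulk T-ALL went from 2 to 1 by DESeq2 size factors, library size or no filter, and to 0 by voom, the replicate block or only the 2 groups compared. Otg T-ALL went from 3 to 1 by library size or no filter, and to 0 by voom, the block or only 2 groups. Shrek T-ALL went from 0 to 2 by DESeq2 or only 2 groups and to 3 by voom or the block. T-ALL against preleukemic cells went from 0 to 5 lower for hulk and 1 higher for shrek by voom, and to 1 for otg by DESeq2. Preleukemic shrek went from 2 to 1 by DESeq2 size factors, library size or no filter and to 0 by DESeq2. With the replicate block, preleukemic hulk fell from 7 to 3 and phf6+/- went from 0 to 1 lower. The cause was not tested. Over the alternatives that leave no library out, 82 counts and group levels stayed within their bounds and 28 did not.

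Leaving out one library at a time gave 0 to 4 members called for TLX1 T-ALL, hulk T-ALL and otg T-ALL, 0 to 2 for hulk T-ALL against preleukemic hulk, 0 to 1 for preleukemic shrek and 5 to 7 for preleukemic hulk. Log2 fold changes that turned sign in TLX1 T-ALL ranged from -0.59 to 6.29 for vtg1, -4.72 to 3.92 for vtg2, -2.83 to 3.20 for vtg3, -6.39 to 1.79 for vtg4, -0.93 to 4.11 for vtg5 and -7.69 to 0.34 for vtg7. vtg1 ranged from -7.75 to 16.1 in phf6+/-, -9.27 to 0.97 in hulk T-ALL against preleukemic, -2.63 to 0.20 in preleukemic otg and -4.52 to 2.42 in preleukemic shrek, and VLDLR from -1.10 to 0.22 in preleukemic hulk. Voom turned vtg2 (-1.69), vtg3 (-0.47), vtg4 (-3.34) and vtg5 (-0.29) in TLX1 T-ALL and vtg1 in preleukemic shrek (-0.27). Library size turned vtg4 in TLX1 T-ALL (-0.47) and VLDLR in preleukemic hulk (0.049). The block turned vtg1 in phf6+/- (-5.95).

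Samples with the same replicate number did not deviate together: of 38 pairs, 4 had a correlation over 0.1 (range -0.25 to 0.23), and 7 of 32 samples correlated best with their own number, so the numbers were not taken to pair samples. Transplants were blocked by tumour of origin, as labelled. Depth limits genes at 0 to 3 reads, whose fitted fold changes are no bounds.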
